A study of Mus musculus with 38 samples.

Results

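Binding of the isolated HSF2 DNA-binding domain (DBD) was compared site by site with binding of full-length HSF2 in asynchronous mouse embryonic stem cells. The members were all distinct HSF2 binding sites at which both proteins gave CUT&Tag signal above 0, which held for 2135 of 2135 distinct sites. The site table had 2141 rows, and 6 repeated intervals were counted once. The sites were called on endogenous HSF2 of wild type cells, in either phase, and not on the fusion proteins. The HSF2 sites are part of 18942 regions listed in the series when the rows for HSF1 and SOX2 are added. CUT&Tag maps a chromatin protein by tethering a transposase to an antibody bound to it, so that sequencing adapters are inserted where the protein sits.

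Both proteins were expressed in the same background, JM8 embryonic stem cells with the genotype Hsf2-/-, made by CRISPR deletion and expanded from clones, so that no endogenous HSF2 was meant to be present. Each was a stably integrated fusion over-expressed from the EF1α promoter, with HA, FLAG and HaloTag at the N terminus, and was detected with the same anti-HA antibody. Halo-HSF2 carried the whole protein. Halo-H2DBD carried the DNA-binding domain with nuclear localisation signals and lacked the other parts of the protein, namely the heptad repeats HR-A/B and HR-C and the regulatory and transactivation domains. Asynchronous cells were untreated. Mitotic cells of the same lines, used here as a second set of libraries for the same pair of proteins, were collected by shake-off after 50 ng/ml nocodazole for 6 h. There were 2 libraries for each protein in each phase. The values at each site are the authors' averages over these 2 libraries, so each protein had 1 value per site and phase, no spread between libraries could be computed and no test between the proteins was possible. The assay gives no expression values with which to check the cell type label. The 95% intervals given for medians run over sites, which are not replicates. The averaged signal carries no read counts, so no counting interval was computed from it. The libraries with no HA-tagged protein and with HSF2 knocked out were not analysed here.

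Heat shock factors bind the heat shock element, a row of GAA units in alternating orientation spaced by a short gap. A single DNA-binding domain contacts a single unit, and the HR-A/B coiled coil joins the proteins into a trimer that can occupy neighbouring units together. HR-C is known to hold trimerisation back. The best known targets are genes of molecular chaperones, the proteins that fold or refold others under stress.

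The elements below are shown because the site class with the longest rows of units had the highest median ratio of domain to full-length signal of the element classes described later, and because the chaperone genes with 3 units fell on both sides. Of 2131 sites with reference sequence, 300 (14.1%) held at least 3 units, with GAA and TTC alternating and 2 bases between neighbours, against 4.27% of windows of the same widths placed 2 kb upstream and 4.27% placed 2 kb downstream. Rows of at least 4 units were found in 24 sites (1.13%), against 0.282% and 0.0939% of these windows, and 7 of the 24 held 5 units. Sequences are the GRCm38 (mm10) reference from RefSeq, plus strand, read 5′ to 3′, with the units in capitals.
Chordc1, 5 units, chr9:18292260-18292288: ccgGAAcgTTCggGAAaaTTCctGAAgca
Klhl26, 5 units, chr8:70481434-70481462: gtaTTCtaGAAtgTTCcaGAAcaTTCaaa
Kxd1, 5 units, chr8:70531938-70531966: ataGAAcgTTCtaGAAtaTTCcaGAAtat
Tbc1d17, 5 units, chr7:44846241-44846269: ccgTTCcaGAAtgTTCcaGAAccTTCtgt
Cacna1a intron, 5 units, chr8:84497977-84498005: tcaGAAtgTTCcaGAAcaTTCcaGAAgag
Tns3 intron, 5 units, chr11:8469466-8469494: agcTTCtaGAAacTTCtaGAAcaTTCtcc
intergenic, 5 units, chr10:80661468-80661496: ttaGAAtaTTCcaGAAcaTTCcaGAAgca
Etl4 intron, 4 units, chr2:20563588-20563617: agccctTTCtaGAAagTTCtaGAAcagtcg
Hspd1, 4 units, chr1:55088053-55088082: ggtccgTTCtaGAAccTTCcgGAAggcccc
Hspb1, 3 units, chr5:135888901-135888929: tcagaaggGAAgtTTCtgGAAagttttaa
Hsp90aa1, 3 units, chr12:110696379-110696407: agcctccgGAAccTTCcgGAAgaaccctc
Hspa8, 3 units, chr9:40801055-40801083: gcgagcgtGAAagTTCcaGAAcgccgcgg
Hsph1, 3 units, chr5:149636280-149636308: actgaggaGAActTTCcaGAAtctgcagc
The Chordc1 element lies 21 bases upstream of a transcript start and the Hspd1 element 35 bases upstream. The Hsph1 element lies 38 bases downstream of one, within the transcribed part. The Hsp90aa1 element overlaps a transcript start, and the Hspa8 element lies 79 bases downstream of one. The remaining elements labelled with a gene lie farther from the nearest transcript start of a coding gene. Those at Klhl26 and Kxd1 lie 4469 and 3985 bases upstream of it, and those at Tbc1d17 and Hspb1 2620 and 891 bases downstream.

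The DNA-binding domain gave the higher signal at most sites. Its median signal was 1.64, against 1.36 for full-length HSF2, in units of spike-in scaled coverage. The median log2 ratio of domain to full-length signal, log2(DBD/FL), was 0.29 (95% interval over sites 0.26 to 0.31), a 1.22-fold excess, and the middle 50% of sites lay between 0.03 and 0.58. The ratio was above 0 at 1652 of 2135 sites (77.4%). A shift shared by all sites cannot be told apart from the amount of each protein in the cells or from the scaling of the tracks, so sites are described relative to this median from here on. A site was counted as favouring a protein when its ratio lay more than 1.5-fold from the median. By that rule 227 sites (10.6%) favoured the domain and 161 (7.54%) favoured the full-length protein. With a 2-fold limit these were 82 (3.84%) and 33 (1.55%) sites, and with 1.5-fold around equal signal 532 (24.9%) and 49 (2.3%). The sites on either side of the limits had nearly equal ratios, 0.87 just inside and 0.87 just outside on the domain side, and -0.30 and -0.30 on the full-length side.

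The proteins ranked the sites alike. Spearman's rho between their signals was 0.88 over 2135 sites, which share 1 genome and its mappability and are not independent. Of the 100 sites with the highest domain signal, 80 were among the 100 highest of the full-length protein, which is 80% of each list. A site's percentile rank differed between the proteins by a median of 6.93 points, and by more than 20 points at 313 sites (14.7%). Fewer of the top sites were shared with endogenous HSF2 of wild type cells, 23 of 100 for the domain and 19 of 100 for the full-length protein. Spearman's rho with the endogenous signal over 2135 sites was 0.072 for the domain and 0.075 for the full-length protein. Endogenous HSF2 was measured with anti-HSF2 in wild type cells and the fusions with anti-HA in Hsf2-/- cells. The part of the antibody, the cells or background signal in these values was not tested.

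**Figure D1:**
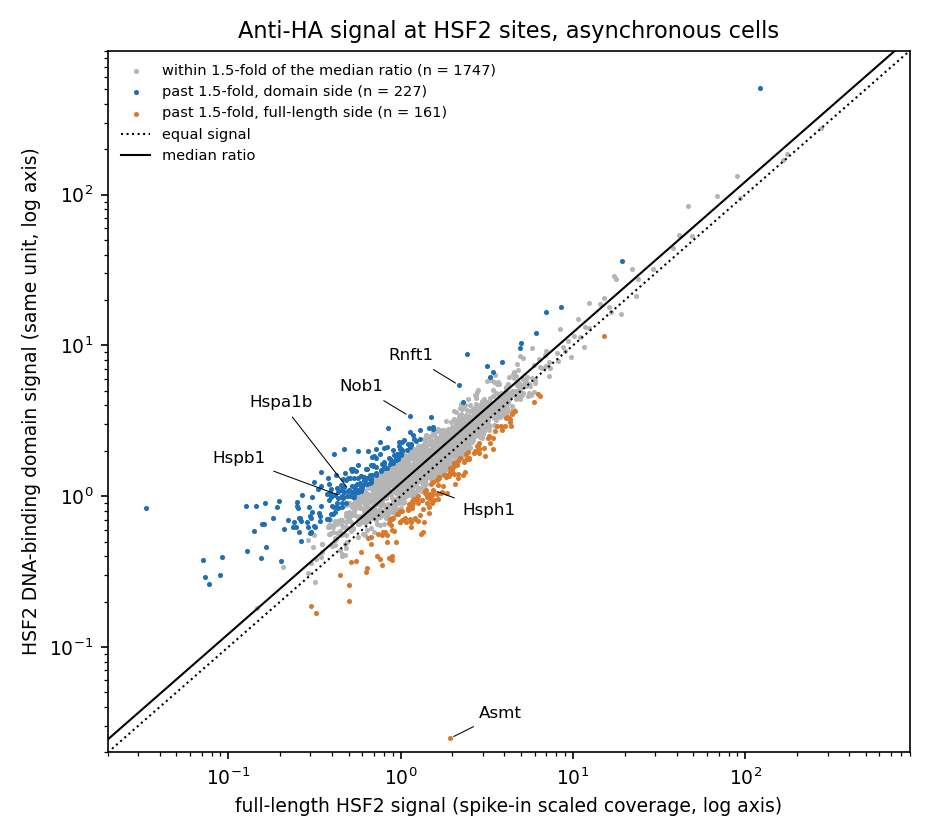
Signal of the DNA-binding domain (vertical axis) against full-length HSF2 (horizontal axis) at 2135 sites in asynchronous cells, both as spike-in scaled coverage on log axes, each point a site and each value an average over 2 libraries. The points follow the line of the median ratio, which lies above the line of equal signal, and the 227 sites past 1.5-fold on the domain side are mostly at low signal.

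Weak sites had higher and more scattered ratios. When sites were divided into quartiles by the mean of both signals, the median log2(DBD/FL) was 0.53 in the weakest quartile, and it was 0.35, 0.22 and 0.16 in the following quartiles. The standard deviation over sites was 0.75 in the lowest quartile and 0.35 in the highest. In the lowest quartile 25.5% of sites favoured the domain and 11.6% the full-length protein, against 3.00% and 5.99% in the highest. The same order of medians was seen with a division by mean mitotic signal, which comes from other libraries, with 0.48, 0.32, 0.24 and 0.17. It was not seen across quartiles of endogenous HSF2 signal, where the medians were 0.32, 0.29, 0.22 and 0.32. Of the 227 sites favouring the domain, 187 had a mean signal below the median of all sites, and of the 161 favouring the full-length protein 98 did. The classes by position, HSF1, SOX2 and heat shock element were therefore also compared among stronger sites alone. The gene lists and other sequence words were not divided in this way.

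The sites that favoured either protein in asynchronous cells did not as a group favour it in mitotic cells. The mitotic median log2(DBD/FL) was -0.18 (95% interval over sites -0.19 to -0.15, 2134 sites) and the ratio was above 0 at 32.8% of sites. Spearman's rho between asynchronous and mitotic ratios was -0.021 over 2134 sites, and -0.033 over the 1068 sites with stronger signal. Of the 227 sites favouring the domain in asynchronous cells, 108 (47.6%) lay on the domain side of the mitotic median. Past 1.5-fold in mitotic cells were 32 (14.1%) on the same side and 38 (16.7%) on the opposite side, where 9.61% and 10.4% of all sites lay. Of the 161 sites favouring the full-length protein, 81 (50.3%) lay on the full-length side of the mitotic median, 25 (15.5%) were past 1.5-fold on that side, and 17 (10.6%) were past it on the domain side. In both groups the shares past the limit were above those of all sites in both directions.

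**Figure D2:**
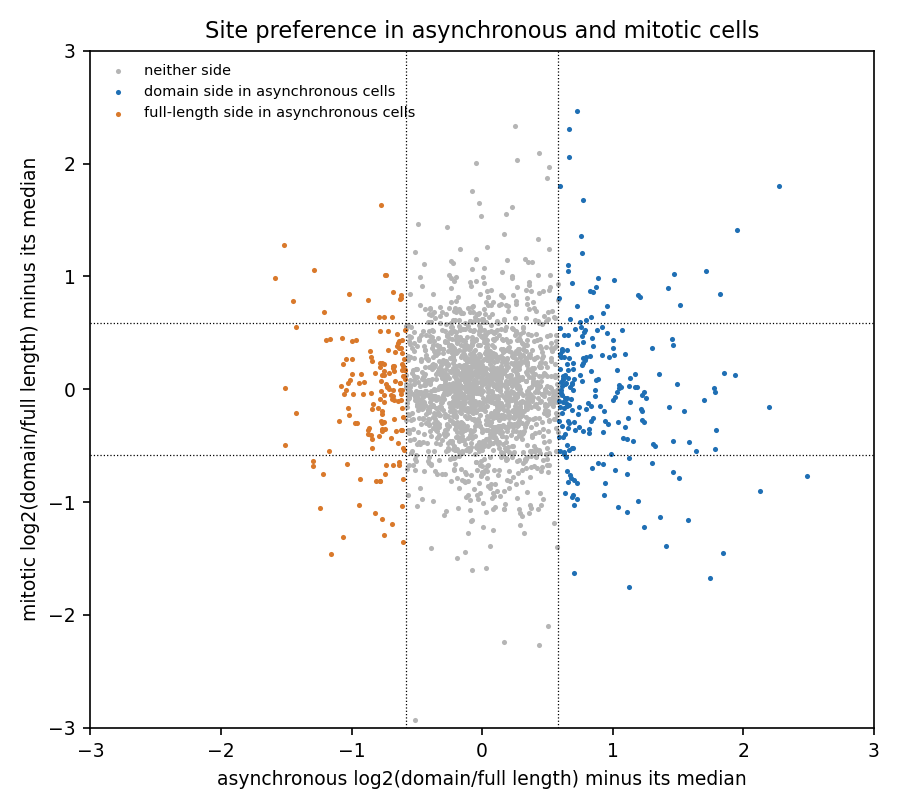
Log2 ratio of domain to full-length signal minus its median over sites, in asynchronous cells (horizontal axis) and mitotic cells (vertical axis), for the 2127 sites within 3 of the median on both axes, with dotted lines at 1.5-fold. The coloured groups, called on the horizontal axis, spread above and below 0 on the vertical axis in similar numbers, 108 of 227 domain-side sites lying above 0.

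A further set of libraries measured the full-length protein with an anti-HSF2 antibody. The paper labels the protein Halo-HSF2 in these libraries and HA-tagged Halo-HSF2 in the anti-HA libraries. Antibody, libraries and possibly construct change together here and cannot be told apart. At the 227 sites favouring the domain, the median site stood at percentile 31.6 of the domain signal and percentile 9.72 of the full-length signal with anti-HA. With anti-HSF2 the full-length protein stood at percentile 33.6 at these sites. At the 161 sites favouring the full-length protein, the percentiles were 18.5 for the domain, 54.6 for the full-length protein with anti-HA and 37.4 with anti-HSF2. The sites were chosen on the asynchronous anti-HA values. The gap between the proteins in the domain group was not present in the anti-HSF2 libraries. Nor was it present in the mitotic anti-HA libraries, where the domain and the full-length protein stood at percentiles 24.2 and 22.1. In the full-length group the mitotic percentiles were 38.5 and 43.4.

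Sites were then grouped by position, by the heat shock element and by overlap with other factors. The differences were small next to the spread over sites. At the 1556 sites within 1 kb of the start of a protein-coding transcript (GENCODE M21) the median log2(DBD/FL) was 0.27, and at the 451 sites with no transcript start within 1 kb it was 0.35. The tails differed more than the medians. Of the sites away from starts 19.3% favoured the domain and 9.98% the full-length protein, against 7.84% and 7.01% of sites at coding starts. Sites away from starts were also weaker, with a median domain signal of 1.33 against 1.73. Among stronger sites alone the difference between coding starts and sites away from starts was -0.03. In mitotic cells sites at coding starts lay 0.07 above the sites away from starts, the opposite direction.

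Sites that overlapped an HSF1 site had the lower ratios. Their median was 0.22 (n = 868) against 0.33 (n = 1267) at sites without HSF1, a difference of -0.10, and 7.03% of them favoured the domain against 13.1%. The shares favouring the full-length protein were 7.14% and 7.81%. The difference was -0.11 among sites at coding starts and -0.08 among sites away from starts, and -0.06 among both stronger and weaker sites. In mitotic cells it was -0.02. With the anti-HSF2 libraries in place of anti-HA for the full-length protein it was 0.25, the opposite direction. Overlap with SOX2, a pluripotency factor, gave a similar picture, with medians of 0.20 (n = 407) and 0.31 (n = 1728), a difference of -0.11, 0.02 in mitotic cells and 0.14 with anti-HSF2. It was -0.05 among stronger and -0.13 among weaker sites. At SOX2 sites away from transcript starts 15.8% favoured the full-length protein, against 7.21% of sites away from starts without SOX2. At coding starts these shares were 6.87% and 7.03%.

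Sites with a heat shock element of at least 3 units had a median ratio of 0.33 (n = 300), against 0.27 (n = 1831) at sites without. This difference of 0.06 was 0.02 among stronger sites and -0.05 among weaker ones, so it was not kept at a given level of signal, and it was -0.12 in mitotic cells. Median signals at sites with an element were 1.18 for the domain and 0.89 for the full-length protein, against 1.75 and 1.46 without. For endogenous HSF2 of wild type cells the medians went the other way, 8.87 with an element and 3.82 without. The 24 sites with at least 4 units had a median of 0.71 (95% interval over sites 0.26 to 0.80), and 17 of 24 lay above the median of all sites. Of them 20 were above 0, as were 77.4% of all sites. The domain was favoured at 5 (20.8%, against 10.6% of all sites) and the full-length protein at 1 (4.17%, against 7.54%). Their signals were low in both fusions, with medians of 1.06 and 0.66, and high for endogenous HSF2 of wild type cells, with a median of 15.4 against 4.14 for all sites. Of the 24 sites, 20 had a mean signal below the median of all sites. When the median ratio of the sites of the same decile of mean signal was subtracted, a calculation added after the values were seen, the 24 sites kept a median of 0.13 and 18 of 24 lay above 0. In mitotic cells they lay on the other side, with a median of -0.40 and 15 of 23 sites below the mitotic median of all sites. With anti-HSF2 for the full-length protein their median was 0.01.

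**Figure D3:**
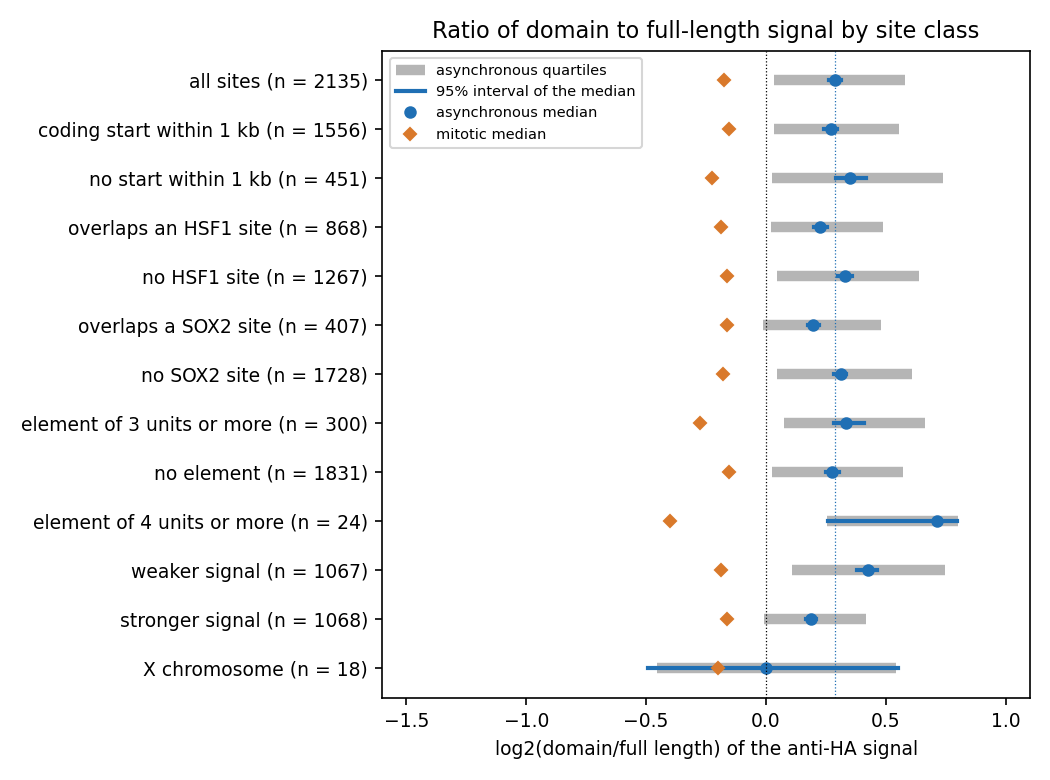
Median log2 ratio of domain to full-length signal for classes of sites (blue points, asynchronous, with the 95% interval over sites as a blue line and the quartiles as a grey bar) and the mitotic median of the same class (orange diamonds). Blue dotted and black dotted lines mark the asynchronous median of all sites, 0.29, and equal signal. Of the classes drawn, that with an element of at least 4 units has the highest asynchronous median, 0.71, and the lowest mitotic median, -0.40.

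Among the 5-unit elements printed above, the site at Chordc1, which encodes a co-chaperone of HSP90, had a domain signal of 1.13 and a full-length signal of 0.60 in asynchronous cells, and 0.69 and 1.16 in mitotic cells. The site at Klhl26 had 2.39 and 1.30, and 1.64 and 2.71 in mitotic cells. Both favoured the domain in asynchronous cells and lay below the median ratio of all sites in mitotic cells. At Kxd1 the asynchronous signals were 1.24 and 0.77, and at Tbc1d17 they were 3.54 and 2.96, a log2 ratio of 0.26, just below the median. The Etl4 intron, with 4 units, had the highest ratio of the 24, 1.99, from signals of 0.72 and 0.18, and the lowest mitotic ratio, -5.07, from 0.02 and 0.51. The only one of the 24 to favour the full-length protein was an exonic site of Rab44 at chr17:29145182-29146562, with 0.37 for the domain and 0.51 for the full-length protein. Nodal, a signalling ligand of the early embryo, had 1.04 and 1.21.

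**Figure D4:**
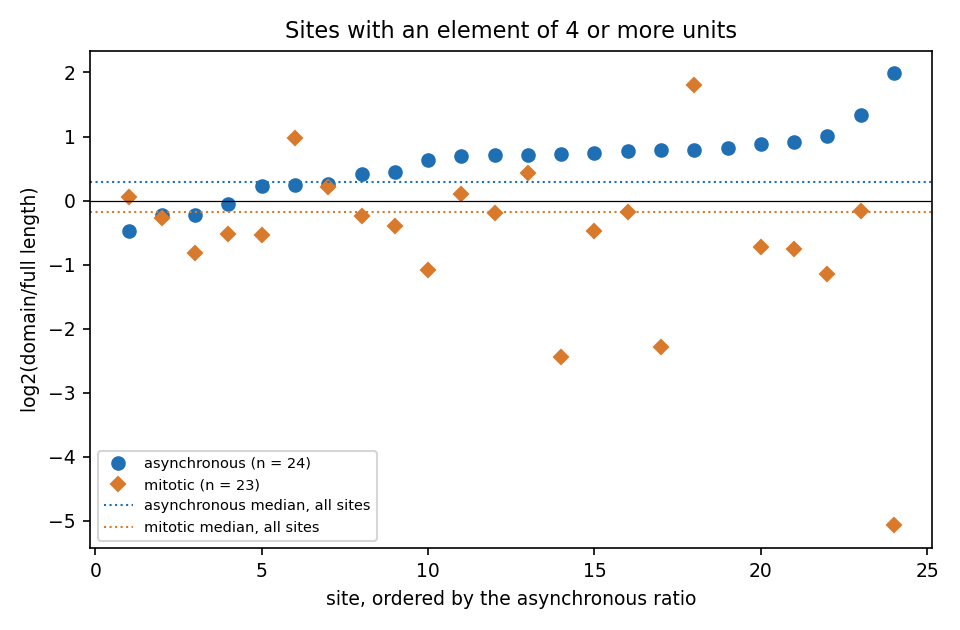
Log2 ratio of domain to full-length signal at the 24 sites with a heat shock element of at least 4 units, ordered by the asynchronous ratio, in asynchronous (blue circles) and mitotic cells (orange diamonds, 23 sites with both signals above 0). Of the asynchronous values 20 lie above 0, where 77.4% of all sites do, and 6 of 23 mitotic values lie above 0, where 32.8% of all sites do.

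Other sequence words gave small differences. Sites with TGACGTCA (the CRE, 174 sites, 8.17%, against 1.55% and 2.39% of the flanking windows), CCGGAAGT (an ETS site, 239 sites), the NRF1 palindrome (77 sites), the YY1 site (104 sites) and a palindrome around CGCG (30 sites), searched as exact words on both strands, had median ratios between 0.17 and 0.22, below the 0.29 of all sites. ATTTGCAT, the octamer, was in 205 sites with a median of 0.31. The median domain signals of the sites with the first 5 words ran from 1.63 to 2.65, against 1.64 for all sites. All but the octamer were found more often in sites than in the flanking windows. Spearman's rho of the ratio with GC content was 0.062 over 2131 sites and with site width -0.019 over 2135 sites.

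Sites of chaperone genes lay mostly within the limit, and those past it were more often on the domain side. Of the HSP70 and HSP110 list, 6 sites at 7 genes were present, with a median ratio of 0.27, 2 of them favouring the domain and 1 the full-length protein, where 10.6% and 7.54% of all sites did. The site at Hspa1b, which encodes a stress-inducible HSP70, had a domain signal of 1.10 and a full-length signal of 0.50, a log2 ratio of 1.13. The neighbouring site shared by Hspa1a and Hspa1l had 1.28 and 0.61, a ratio of 1.06. The domain gave more than the 1.5-fold limit above the median at both of these sites, where the mitotic ratios were 0.21 and 0.10. Hspa1a and Hspa1b are near-identical copies, so the division of reads between them is uncertain. Hspa8, the constitutive HSP70, had nearly equal signals of 2.21 and 2.19. Hsph1, which encodes the HSP110 nucleotide exchange factor, had a domain signal of 1.10 and a full-length signal of 1.55, a ratio of -0.49. It lay on the full-length side in asynchronous cells and on the domain side in mitotic cells, where the signals were 2.55 and 2.01. With anti-HSF2 the asynchronous full-length signal was 1.74 at Hspa1b, above the domain signal there. At the Hspa1a site it was 1.28, nearly equal to the domain signal, and at Hsph1 it was 1.24, still above the domain signal.

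Of the HSP90 list, 10 sites had a median of 0.21, and 3 (30.0%) favoured the domain and 1 (10.0%) the full-length protein, against 10.6% and 7.54% of all sites. The domain side held Fkbp4, an immunophilin that binds HSP90, with signals of 1.17 and 0.59 and a ratio of 0.99, Chordc1 with 0.92, and Ahsa1, the activator of the HSP90 ATPase, with 2.81 and 1.53 and a ratio of 0.87. Ahsa2, the paralogue of Ahsa1, had 3.50 for the domain and 4.44 for the full-length protein, a ratio of -0.34. The HSP90 genes themselves were near the median, Hsp90aa1 with 1.34 and 1.16 and Hsp90ab1 with 2.58 and 2.27, ratios of 0.20 and 0.19. Hsp90aa1, the stress-inducible form, and Hsp90ab1, the constitutive form, were among the strongest sites of endogenous HSF2, with signals of 75.7 and 104. By domain signal they ranked 1390 and 473 of 2135. In mitotic cells Ahsa1 had 1.82 and 1.17, again past 1.5-fold on the domain side of the median. With anti-HSF2 the asynchronous full-length signals at Chordc1 and Ahsa1 were 0.57 and 0.58, also below the domain signals. At Fkbp4 the anti-HSF2 signal was 1.21, slightly above the domain signal, and at Ahsa2 it was 2.29, below it.

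The 9 sites of the HSP40 and BAG list, co-chaperones of HSP70, all had more domain than full-length signal, as did 77.4% of all sites, with a median of 0.59 and a range from 0.16 at Hspbp1 to 1.21 at Dnajc16, where the signals were 1.60 and 0.69. Dnajc16 alone (1 of 9, 11.1%) was past 1.5-fold, a share close to the 10.6% of all sites. In mitotic cells the median of these 9 sites lay 0.54 below the mitotic median of all sites, and Dnajc16 had signals of 1.05 and 1.88. With anti-HSF2 for the full-length protein the asynchronous median ratio of the list was -0.10. At Dnajc16 the anti-HSF2 signal was 2.53, above the domain signal of 1.60. In the asynchronous anti-HA libraries Dnaja1 had 1.36 and 0.91, Dnajb1 2.67 and 2.18, and Bag3 0.61 and 0.53. The ratios of these 3 genes, 0.59, 0.29 and 0.21, were within the limit.

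Among the small heat shock and other stress genes, with a median of 0.50 over 5 sites, Hspb1, which encodes the small heat shock protein HSP27, had 1.00 for the domain and 0.45 for the full-length protein, a ratio of 1.14, and favoured the domain. In mitotic cells its signals were 0.90 and 1.21. With anti-HSF2 the asynchronous full-length signal at Hspb1 was 1.15, above the domain signal. With anti-HA in asynchronous cells Serpinh1, the collagen chaperone, had 0.66 and 0.57. The site shared by Hspd1 and Hspe1, the mitochondrial chaperonin and its partner, had 1.59 and 1.20 and a ratio of 0.41, which was also the median of the 7 chaperonin sites, none of them past the limit. The ubiquitin gene Ubb, with 1.94 and 1.98, was within it as well. No HSF2 site of the table lay within 1 kb of a transcript start of Hspa5 or Cct2.

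**Figure D5:**
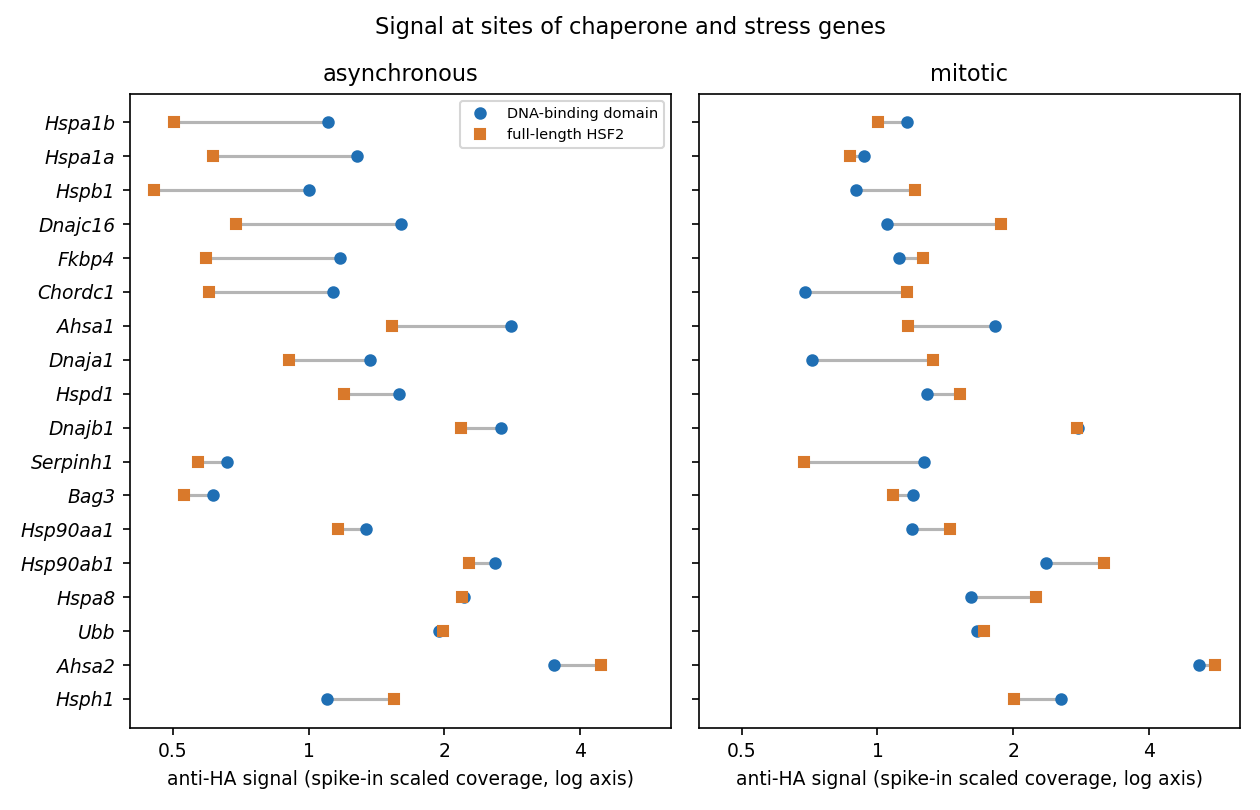
Anti-HA signal (spike-in scaled coverage, log axis) of the DNA-binding domain (blue circles) and full-length HSF2 (orange squares) at sites of chaperone and stress genes, in asynchronous cells on the left and mitotic cells on the right, each point an average over 2 libraries. From Hspa1b to Ahsa1 the domain is past the 1.5-fold limit in asynchronous cells. In mitotic cells, where the median ratio of all sites is -0.18, the ratios at Dnajc16, Chordc1 and Hspb1 are -0.84, -0.75 and -0.43. Those at Fkbp4, Hspa1a, Hspa1b and Ahsa1 are -0.18, 0.10, 0.21 and 0.64.

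Lists of genes of other functions were described in the same way. The zinc finger genes had a median ratio of 0.08 over 32 sites, with 5 (15.6%) favouring the full-length protein and 1 (3.13%) favouring the domain, where 7.54% and 10.6% of all sites did. The 5 were Zfp91 with a ratio of -0.74, Zfp438 with -0.49, Zfp868 with -0.46, Zfp687 with -0.33 and Zfp64 with -0.30, and the 1 on the domain side was Zfp839 with 0.91. In mitotic cells the median of this list lay 0.03 above that of all sites. Translation factors had a median of 0.03 over 8 sites, with Eif3a, a subunit of the initiation factor eIF3, at -0.59. Replication-dependent histone genes, 38 genes at 17 sites, had a median of 0.15. They had 1 site past the limit (5.88%, against 7.54% of all sites on that side), shared by Hist1h2ak and Hist1h2bn, at -0.32.

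Cytosolic ribosomal protein genes had a median of 0.18 over 17 sites, with Rpl23 at 0.97 and Rpl23a at -0.43. Mitochondrial ribosomal protein genes had 0.54 over 7 sites, with Mrps2 at 0.99. Polycomb and DNA methylation genes had 0.44 over 11 sites, with Cbx6, a chromodomain subunit of Polycomb repressive complexes, at 0.89. Splicing and RNA-binding genes had 0.17 over 17 sites, with Hnrnpa2b1, whose protein binds pre-mRNA, at -0.32. Cell cycle genes had 0.19 over 8 sites, with Cdc25a, a phosphatase that activates cyclin-dependent kinases, at -0.40. Pluripotency genes had 0.17 over 8 sites, with Klf5 at -0.37, and proteasome and ubiquitin genes had 0.10 over 6 sites with none past the limit. Each of these named sites was the only 1 of its list past the limit in its direction. Such a site made up between 5.88% and 14.3% of its list. Over all sites 10.6% favoured the domain and 7.54% the full-length protein. Starts of non-coding RNA genes were close to all sites, with medians of 0.21 for snRNA (25 sites), 0.21 for snoRNA (20 sites), 0.22 for miRNA (75 sites), 0.32 for lincRNA (102 sites) and 0.27 for antisense genes (123 sites).

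The sites with the most extreme ratios were taken among those with a mean signal no lower than the median over sites. The 12 highest log2 ratios ran from 1.17 to 2.06, and the next was 1.16. The highest was a 402 bp exonic site of the predicted gene Gm10801 at chr2:98663689-98664090, 65.4% of which is repeat sequence, with a domain signal of 509 and a full-length signal of 122. It ranked 1 and 4 among 2135 sites in these signals, and in mitotic cells its signals were 176 and 197. Intergenic sites at chr4:156356726-156358046 (8.83 and 2.42), chr7:29518188-29519440 (2.83 and 0.85) and chr1:135198625-135200316 (2.30 and 0.76) followed. Of the 12, 6 were at coding starts, none held an element of 3 units among those with sequence, and 6 of 12 lay above the mitotic median. Of the 1068 sites they were drawn from, 840 were at coding starts and 67 held an element of 3 units.

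At coding starts the highest ratio was at Nob1, which encodes an endonuclease of ribosomal RNA maturation, with 3.39 for the domain and 1.13 for the full-length protein, a ratio of 1.58. Rnft1 had 5.45 and 2.18, and Faf1, which encodes a ubiquitin-binding factor, had 2.67 and 1.14. AW822073 had 7.26 and 3.15, Aatf, a factor of ribosome production and apoptosis, had 2.36 and 1.04, and the start shared by Slc5a6, a vitamin transporter, and Atraid had 3.36 and 1.49. In mitotic cells the signals were within 1.5-fold of each other at all 6 of these starts. At Nob1 they were 1.40 and 1.22.

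The 12 lowest had ratios from -0.77 to -0.53, and the next had -0.50. The lowest was at Dop1b, a gene of endosomal traffic, with 1.21 for the domain and 2.06 for the full-length protein. Zfp91 with Lpxn had 2.06 and 3.44, Leprot 1.86 and 3.09, and Dhx30, which encodes an RNA helicase, 1.45 and 2.36. The start shared by Mcm7, a subunit of the replicative helicase, and Ap4m1 had 1.40 and 2.15. Rab39, a small GTPase, had 2.93 and 4.35, and M6pr, a mannose 6-phosphate receptor, 1.93 and 2.84. The other coding starts were 9130023H24Rik with Armc5 (2.24 and 3.30) and Gk, glycerol kinase (1.41 and 2.04). Sites at chr13:21940100-21941347, chr5:72901563-72904368 and chr8:79622041-79623705 made up the 12, of which the last 2 held an element of 3 units and had endogenous HSF2 signals of 39.4 and 39.97. In mitotic cells 8 of the 12 lay on the full-length side of the median.

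With no limit on signal, and chosen after the values were seen, the extremes were weak sites. The highest ratio, 4.66, was at the intergenic site chr2:124719203-124720270, with 0.83 for the domain and 0.03 for the full-length protein. Introns of Card14 and Col18a1 followed with 2.78 and 2.56, from full-length signals of 0.13 and 0.15. The lowest was at Asmt, which encodes the last enzyme of melatonin synthesis, with a domain signal of 0.02 and a full-length signal of 1.93. In mitotic cells the Asmt signals were 2.63 and 3.07, and with anti-HSF2 the asynchronous full-length signal was 3.09, so the asynchronous domain track alone was near 0 there. At Apold1 and in an intron of Hoxb3 the ratios were -1.30 and -1.23, and the mitotic ratios were 0.81 and 1.10, of the opposite sign.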

How the data were processed

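Anti-HA CUT&Tag signal was analysed for Halo-H2DBD and Halo-HSF2 in Hsf2-/- cells. Per the methods, the authors aligned reads to mm10 and to dm6 with Bowtie2, kept PCR duplicates, scaled coverage by Drosophila spike-in reads and called HSF2 sites with SEACR against IgG in wild type cells of both phases. The deposited values are coverage signal, averaged by the authors over each site and over 2 libraries. They are not counts and carry no read totals. The study lists reads and a scaling value for each library. The methods also describe setting the asynchronous sample to 1, but the listed values for these libraries are not 1.

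From these values log2(DBD/FL) was computed, with no pseudocount, at sites where both columns exceeded 0. Medians have 95% binomial order-statistic intervals over sites. Sites were placed by GENCODE M21 transcript starts within 1 kb and by reference sequence (Python 3.11.15, numpy 2.4.6, pandas, scipy, pysam). They were also placed by overlap of at least 1 bp with the authors' HSF1 sites and with SOX2 sites. The SOX2 sites were taken by the authors from earlier literature. Scripts were tested on simulated data. Named sites were the 12 highest and 12 lowest ratios at or above the median mean signal, listed genes past 1.5-fold, and fixed chaperone and ubiquitin genes, not all of which are reported here. The sites and gene lists were chosen with earlier results of these data known. Alternatives covered the pseudocount, a signal minimum, merged intervals, deciles of signal, ranks, the antibody, the fold limit and the element length.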

Additional observations from a re-analysis of the deposited data

How the results depend on the processing

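Each of the 8 summary values was recomputed under other settings, giving 68 values. Of these, 42 were counted as kept, meaning the same direction and a value within the interval over sites or within 1.5 times the count. For class differences in percentile ranks, which are in points, only the direction was judged. The 42 include the values from merged intervals, which could not change. With 1 added to both signals the median log2(DBD/FL) was 0.17, 29 sites favoured the domain and 18 the full-length protein, and the HSF1 and SOX2 differences were -0.050 and -0.059. With sites of mean signal of at least 1 (1629 sites) these were a median of 0.24 and 126 and 81 sites. With the decile median of mean signal subtracted the coding start difference was -0.0090, the element difference turned to -0.041, the HSF1 difference was -0.042 and rho with GC content 0.11. With differences of percentile ranks the element difference turned to -0.19 points and rho with GC was 0.13. With the full-length protein measured by anti-HSF2 (2122 sites) the median was 0.11, 524 sites favoured the domain and 443 the full-length protein, the coding start difference was -0.15, and the HSF1 difference (0.25), SOX2 difference (0.14) and rho with GC (-0.14) turned. A 2-fold limit gave 82 and 33 sites, and 1.5-fold around equal signal 532 and 49. The difference for elements of 4 units was 0.43. The causes of these changes were not tested. No sites overlapped, so merging changed nothing, and repeat-rich sites or sites off the autosomes, left out after the data were seen, moved no value past these bounds. No paired analysis was possible because each column is an average over the libraries of a condition, and for the same reason no library could be left out. The signal carries no read counts, so no limit from depth was computed per site.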

Other observations

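Sites on the sex chromosomes and on unplaced or unlocalised scaffolds were looked at after the values were seen. Of 18 sites on the X chromosome 7 (38.9%) favoured the full-length protein, against 7.54% of all sites, and 1 (Pdzd4) favoured the domain. Among the 7 were Asmt, Gprasp1 with a domain signal of 0.62 and a full-length signal of 1.15, Gk, Dkc1 with 2.77 and 3.90, Morf4l2 with 1.30 and 1.64, and Rragb with 0.72 and 0.90. Without Asmt the median log2(DBD/FL) on X was 0.10 and 6 of 17 sites (35.3%) favoured the full-length protein. After subtraction of the median of the same decile of mean signal, 12 of the 18 X sites lay below 0. The mitotic median on X was -0.20, close to the -0.18 of all sites. With anti-HSF2 for the full-length protein the ratio was -6.96 at Asmt and -0.78 at Gprasp1, of the same sign, 0.01 at Gk and 0.04 at Rragb, and 0.49 at Morf4l2 and 1.92 at Dkc1, of the opposite sign. Dkc1 encodes the pseudouridine synthase dyskerin.

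The 4 sites on the Y chromosome had ratios of 0.80, 0.85, 0.97 and 1.23, all above the median of all sites, and mitotic ratios from -1.004 to -0.21. The first of them, at Gm21860, had signals of 4.68 and 2.69, and the strongest, at chrY:4036379-4036748, had 83.7 and 46.4. The 4 sites on unplaced or unlocalised scaffolds had ratios from 0.12 to 1.25, on both sides of the median of 0.29. These are few sites, several of them mostly repeat sequence (86.9% and 85.4% at 2 of the Y sites), and the part of repeats in their values was not tested. Over all 53 sites with at least 50% repeat sequence the median ratio was 0.26.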
